A study of Mus musculus with 5 samples.

Results

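The regions described here are binding peaks of V5-tagged KLF5 in mouse embryonic stem (ES) cells whose summit, the position of highest signal, lay at the end of exactly 1 protein-coding gene. A peak was taken when its summit on chromosomes 1 to 19 was within 200 bp of the start or end of a RefSeq protein-coding gene (GRCm38/mm10) and no other coding gene started or ended within 1 kb. The rule used position alone, not signal, and found 4894 of the 45378 peaks in the list. Of the 39866 other peaks on these chromosomes, 1136 lay within 200 bp of a gene end but had an end of another gene within 1 kb. A further 5831 lay 201 bp to 1 kb from the nearest end, 17657 lay deeper inside genes, and 15242 lay outside genes.

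The data came from V5 chromatin immunoprecipitation and sequencing (ChIP-seq) of wild type ES cells derived from C57B6/J mice and overexpressing V5-KLF5. IgG immunoprecipitate and input DNA of the same cells served as controls, and so did V5 immunoprecipitate and input DNA of wild type ES-D3 cells, an established mouse ES line without the tagged protein. The labels do not name the promoter that drives V5-KLF5 or say whether the cells were 1 clone, and the protein was present beyond its native level. Each group had 1 library, so nothing below could be tested against a spread between cultures.

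KLF5 belongs to the Krüppel-like transcription factors, zinc-finger proteins that bind GC-rich and CACCC elements, and it takes part in keeping ES cells self-renewing. Gene starts in mammals often lie in CpG islands, GC-rich stretches where general and sequence-specific factors bind close together. The 3′ end of a gene carries no promoter of its own, although enhancers or start sites of other transcripts can lie there.

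The V5 library of V5-KLF5 cells had 28.8 M tags (M, mega), of which 23.2 M were kept after duplicate removal, and the IgG and ES-D3 V5 libraries had 31.9 M and 28.2 M. The IgG list held 3 peaks and the ES-D3 list 0, and 0 control peaks overlapped any of the 4894 regions. The header of the ES-D3 list carries the run name JM8.N4, another mouse ES line, so the line behind that control is uncertain. The lists hold called peaks, so weaker control signal under these regions was not analysed here.

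The DNA just upstream of the strongest of these gene starts is shown so that the elements the KLF family is known to bind can be looked for in it. Each line gives the strand of the gene, 5′ to 3′, ending at the base before the gene's first base (RefSeq, GRCm38.p6), and capitals mark CCNCNCCC on either strand. The 6 genes had the highest fold enrichments among summits inside a RefSeq promoter window. Kmt2a encodes a histone H3 lysine 4 methyltransferase, Tob2 an antiproliferative protein, Rnf44 a RING finger protein and Tubb2a a beta-tubulin. Zdbf2 is an imprinted gene, and Btbd8 encodes a BTB domain protein.
Kmt2a: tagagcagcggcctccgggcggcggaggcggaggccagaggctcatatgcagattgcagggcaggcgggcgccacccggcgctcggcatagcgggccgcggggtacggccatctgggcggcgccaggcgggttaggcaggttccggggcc
Btbd8: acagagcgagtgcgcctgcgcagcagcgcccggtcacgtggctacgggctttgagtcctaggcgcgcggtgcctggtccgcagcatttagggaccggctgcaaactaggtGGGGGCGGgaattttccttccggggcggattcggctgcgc
Tob2: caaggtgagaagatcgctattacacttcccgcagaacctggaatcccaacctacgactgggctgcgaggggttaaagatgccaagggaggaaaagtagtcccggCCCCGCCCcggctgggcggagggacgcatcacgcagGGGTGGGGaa
Zdbf2: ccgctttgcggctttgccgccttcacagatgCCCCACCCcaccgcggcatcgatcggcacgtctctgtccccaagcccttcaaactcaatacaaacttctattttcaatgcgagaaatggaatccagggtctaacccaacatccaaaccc
Rnf44: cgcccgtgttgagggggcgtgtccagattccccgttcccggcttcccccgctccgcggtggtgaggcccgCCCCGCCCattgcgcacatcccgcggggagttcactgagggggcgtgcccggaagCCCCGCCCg
Tubb2a: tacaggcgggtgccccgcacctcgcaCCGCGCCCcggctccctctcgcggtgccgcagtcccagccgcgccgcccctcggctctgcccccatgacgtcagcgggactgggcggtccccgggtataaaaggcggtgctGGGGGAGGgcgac

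These stretches lie at chr9:44881353-44881502 (Kmt2a, minus strand), chr5:107437780-107437929 (Btbd8, plus), chr15:81858327-81858476 (Tob2, minus), chr1:63200208-63200357 (Zdbf2, plus), chr13:54694077-54694210 (Rnf44, minus) and chr13:34078009-34078158 (Tubb2a, minus). Distances to marked elements, here and below, run from the summit to the middle of the nearest element shown. In Zdbf2 this was 2 bp, with the summit inside the element. In Btbd8 it was 11 bp, in Tubb2a 12 bp and in Tob2 13 bp. The Kmt2a stretch, beside the strongest summit of all, held 0 matches of CCNCNCCC and 1 of the shorter CACCC. Its whole promoter window, which runs past the gene's first base, held 6 of CCNCNCCC. The Rnf44 summit lay 50 bp inside the gene, outside the stretch shown, and the nearest element shown was 55 bp from it.

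For contrast, the lowest fold enrichments among such summits with a pileup above the median were at Gatd3a and at Gpn1, which encodes a GTPase that takes part in nuclear import of RNA polymerase II.
Gatd3a: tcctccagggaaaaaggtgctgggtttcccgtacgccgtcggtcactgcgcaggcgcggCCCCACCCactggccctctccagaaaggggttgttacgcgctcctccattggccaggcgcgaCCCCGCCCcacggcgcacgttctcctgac
Gpn1: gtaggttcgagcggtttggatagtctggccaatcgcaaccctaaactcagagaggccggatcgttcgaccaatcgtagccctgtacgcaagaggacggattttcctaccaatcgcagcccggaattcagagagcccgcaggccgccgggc

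They lie at chr10:78169756-78169905 (Gatd3a, minus strand) and chr5:31494591-31494740 (Gpn1, plus). Both summits had a fold enrichment of 3.18 and a pileup of 29, beside a median pileup of 28 over all 4894 regions. A low fold enrichment at that height means a high input background, so these were not low peaks. Gatd3a nevertheless held 2 marked elements, the nearer 11 bp from its summit, whereas the Gpn1 stretch held 0 and its whole window 1. The Gpn1 summit lay 36 bp inside the gene, outside the stretch shown. Marked elements were thus present near a summit of low fold enrichment as well as near summits of high fold enrichment.

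The peaks at single gene ends were longer and taller than the rest of the list. Their median length was 536 bp (95% interval of the median 528 to 545, quartiles 390 and 743), against 416 bp (413 to 418, quartiles 312 and 589) for the other peaks. The lengths ran from 250 to 2621 bp in these regions and from 250 to 4967 bp in the others. Median pileup, the height of extended tags at the summit, was 28 (quartiles 21 and 41), against 23 (quartiles 18 and 34). The ratio of medians was 1.29 for length and 1.22 for pileup, or 0.37 and 0.28 on the log2 scale. All these intervals cover counting error over peaks of 1 library only.

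Fold enrichment, the authors' ratio of pileup to input background, had a median of 6.10 (quartiles 4.55 and 8.57), against 5.12 (quartiles 4.14 and 7.32) in the other peaks. The input background was slightly higher too, with a median of 3.64, against 3.45. Part of the list stands on the lowest background the peak caller allows (3.10), and this held for 32.3% of these regions, against 37.8% of the other peaks. The bearing of the input on the difference was not tested. Peaks shared by the ends of several genes were still longer and as strong, with a median length of 577.5 bp, a pileup of 30 and a fold enrichment of 6.05.

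The excess lay in the middle of the range and not among the very strongest peaks. A fold enrichment of at least 10 was reached by 840 of the 4894 regions (17.2%, exact 95% interval 16.1 to 18.3), beside 13.0% of all peaks on these chromosomes. A pileup of at least 50 was reached by 734 (15.0%), beside 11.9%, and a length of at least 1000 bp by 427 (8.72%), beside 5.92%. Such lengths were more frequent still among peaks shared by several gene ends (12.3%) and peaks 201 bp to 1 kb from an end (10.7%). A fold enrichment of at least 20 was reached by 85 (1.74%, interval 1.39 to 2.14), beside 1.59%, and a pileup of at least 100 by 77 (1.57%), beside 1.53%. These last shares are close to those of all peaks. Among peaks with a −log10 q of at least 10, the log2 ratio of median pileup was 0.04 and that of median length 0.19, so the difference in height was small among peaks past that cutoff.

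Length and pileup went together, with a Spearman rank correlation of 0.638 over the 4894 regions and 0.698 over the 39866 others. Both come from the same tags of 1 library, and the values are descriptive. At like pileup, the regions at gene ends remained longer over most of the range. Between a pileup of 26 and 30 their median length was 528 bp, against 451 bp for the other peaks, a ratio of 1.17. Between 61 and 100 it was 848 bp, against 789.5 bp, and between 101 and 400 it was 959 bp, against 961 bp. The gap in length was thus largest at middling height and absent in the tallest class, which held 72 of these regions.

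**Figure D1:**
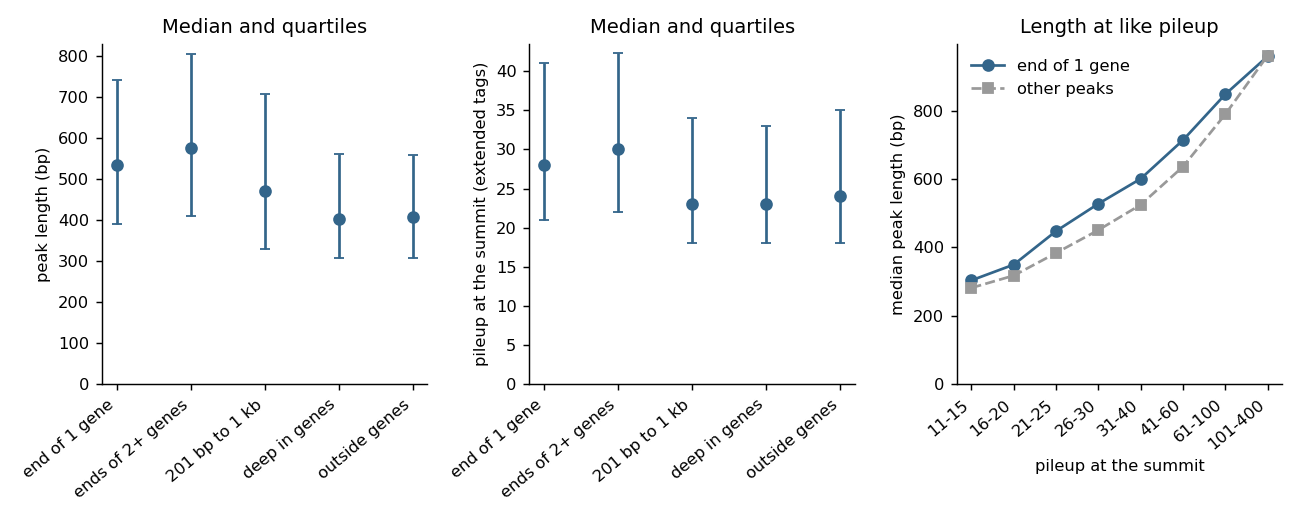
The left and middle panels give the median (point) and quartiles (bars) of peak length in bp and of pileup for peaks at the end of 1 gene, at ends of several genes, 201 bp to 1 kb from an end, deep inside genes and outside genes. The right panel gives the median length in classes of pileup for peaks at the end of 1 gene and for all other peaks, with 528 against 451 bp at a pileup of 26 to 30.

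The tallest and strongest region was at Kmt2a, with a pileup of 248, a fold enrichment of 58.7 and a length of 1606 bp (chr9:44881239-44882844). Btbd8 followed with a pileup of 200 and a fold enrichment of 49.1, and Tob2 with 196 and 40.8. Zdbf2, Rnf44 and Tubb2a had fold enrichments of 36.4, 35.4 and 33.9. Next came Mme, the gene of the membrane metalloendopeptidase neprilysin, at 33.6, and Ndrg1, a stress-responsive gene, at 32.9. The uncharacterised gene 1700024J04Rik had 32.5, and Fbxo15, whose F-box protein is a marker of ES cells, had 32.3. By pileup, Ptp4a2, which encodes a tyrosine phosphatase, also came among the first 10, at 157.

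The longest regions were mostly other ones. Gabbr1, which encodes a subunit of the GABA-B receptor, had 2621 bp at a pileup of 76. Klf12, a Krüppel-like repressor gene, had 2406 bp at a pileup of 59, and Sertad2, a SERTA domain gene, had 2289 bp at 49. Notch1, the signalling receptor gene, had 2228 bp at a pileup of 98. They were followed by the immediate early gene Ier2 (2207 bp), the repressor gene Hic2 (2180 bp), Wwc2 of the Hippo-linked WWC family (2137 bp), Ndrg1 (2071 bp), the chaperone gene Hsp90ab1 (2058 bp) and 1810013L24Rik (2033 bp). Ndrg1 alone was among the first 10 both by length and by fold enrichment. Ier2 stood on an input background of 7.67 and had a fold enrichment of 8.19.

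The shortest regions were as long as the tag extension, 250 bp. Among them, Twsg1, which encodes an extracellular BMP modulator, had a pileup of 22 and a fold enrichment of 5.53. Fam241a and Rsl24d1, a ribosome biogenesis gene, both had a pileup of 20. The lipid droplet gene Cidea and the zinc-finger gene Zkscan16 both had 19. All of these heights lay under the median of 28.

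Within the 200 bp window, summits thinned out away from the gene end. The median distance was 76 bp, with 903 summits within 25 bp and 354 at 176 to 200 bp. Median pileup was 29 in the nearest class, 31 at 26 to 50 bp and 25 in the farthest. The called peak itself covered the gene end in 4629 of the 4894 regions, which the 200 bp limit makes likely at these peak lengths. Inside the gene lay 2244 summits, and outside it 2650. At the limit of the rule the values did not jump: the 770 summits at 151 to 200 bp had a median length of 518.5 bp and a pileup of 26, and the 676 at 201 to 250 bp, just outside, had 513.5 bp and 25. As single cases, Mdfi, the gene of a MyoD family inhibitor, at 200 bp had a fold enrichment of 10.98 and was counted, and Mien1 at 201 bp had 24.0 and was not. At the 1 kb limit, Cops7a, a COP9 signalosome subunit gene, was counted, with the next gene end 1002 bp away, and Foxj1, a factor of cilia formation, was not, with the next at 996 bp.

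Nearly all of these summits marked the start of their gene. The RefSeq promoter windows gave the strand for 3914 of the 4894 regions (80.0%), and the other 980 are not resolved, 136 of them on chromosome 18. Of the 3914, 3799 were at the gene start (97.1%, exact interval 96.5 to 97.6) and 115 at the 3′ end. Among genes whose start stood alone by the same 1 kb rule, 3799 of 14027 had a summit there, or 27.1%. Among 3′ ends that stood alone, 115 of 14349 did, or 0.801%. Of the summits at starts, 3442 (90.6%) were also within 200 bp of a start site in the promoter table for that gene. Of the 115 at 3′ ends, 0 were. The strand that told starts from 3′ ends came from the same table, so these counts are no independent check of the split.

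At starts, the median position was 11 bp before the gene's first base, a value of -11 bp in the direction of the gene, with quartiles of -83 and 64 bp. Signal was highest just upstream. The 594 summits at -100 to -51 bp had a median pileup of 32 and a fold enrichment of 6.59, and the 710 at -50 to -1 bp had 31 and 6.61. Inside the gene, the 350 summits at 100 to 149 bp had a median pileup of 25 and a fold enrichment of 5.59.

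**Figure D2:**
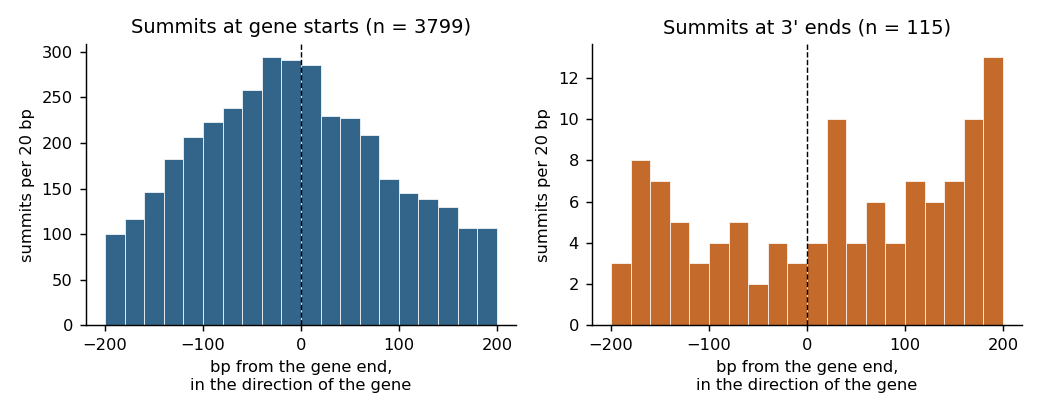
Number of summits per 20 bp by distance from the gene start (left, 3799 summits) or 3′ end (right, 115 summits), with negative distances upstream and positive ones downstream in the direction of the gene. Summits gather around the start, with a median of -11 bp, and show no such gathering at the 3′ end.

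The 115 summits at 3′ ends had a median length of 374 bp and a pileup of 22, against 542 bp and 29 for the 3799 at starts. Their median fold enrichment was 4.63, against 6.10. A fold enrichment of at least 10 was reached by 16 of them (13.9%, interval 8.17 to 21.6), against 17.3% at starts, and the share over all peaks was 13.0%. The strongest was at Ctdsp1, which encodes a small phosphatase of the RNA polymerase II C-terminal domain, with 29.8 at a summit 164 bp past the gene. Fkbp4, the gene of an HSP90 co-chaperone, followed with 27.8, then the transporter gene Mfsd10 with 18.5. Spata13 had 18.3 and lay 95 bp from the end of a long noncoding RNA gene. Eif3k, a translation initiation factor gene, had 16.9, and Lce3b, a late cornified envelope gene, had 15.4. A long noncoding RNA gene ended or started within 1 kb of 6 of the 115 (5.22%), beside 12.9% of all 4894 regions. Genes shorter than 2 kb held 17 of the 115 (14.8%), a share not computed for all regions.

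The 4894 summits lay at 4861 genes, which is 23.5% of the 20665 coding genes on these chromosomes and 24.4% of the 19938 with at least 1 end standing alone. With ends close to other genes counted as well, 6452 genes (31.2%) had a summit within 200 bp. Most genes, 4828, had 1 such summit, 33 had 2, and 0 had more. In all of these 33, the summits stood at opposite ends of the gene, which was between 0.435 and 342 kb long. Ctdsp1 and Fkbp4 were stronger at the 3′ end (29.8 and 27.8) than at the start (8.39 and 6.35). Cyp2s1, a cytochrome P450 gene, was stronger at the start, with 27.4, than at the 3′ end, with 8.57, and so was the zinc-finger gene Zmym6, with 21.2 and 6.59.

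Genes with such a summit were longer than genes without. Their median length was 23.6 kb, against 16.2 kb for the 15077 genes with an end standing alone and no such summit. In 5 equal classes of gene length the share with a summit was 13.1% among the shortest, then 23.5%, 27.9%, 29.8% and 27.6%. Over the chromosomes it ran from 19.1% on chromosome 7 to 28.1% on chromosome 5.

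Under the rule, several groups of genes with general cellular work had high shares, and others did not. Each share counts genes with a summit among group members with an end standing alone, beside 24.4% of all such genes. Cytosolic ribosomal protein genes had a summit at 44 of 71 (62.0%, exact interval 49.7 to 73.2). Mediator, the coactivator that links factors to RNA polymerase II, had one at 15 of 27 subunit genes (55.6%), and translation initiation factors at 26 of 51 (51.0%). Splicing factors had one at 20 of 43 (46.5%), cyclins and cyclin-dependent kinases at 19 of 41 (46.3%), and RNA polymerase subunits at 10 of 22 (45.5%). Ubiquitin-conjugating enzymes followed at 13 of 31 (41.9%) and proteasome subunits and chaperones at 18 of 46 (39.1%). Genes of the Hippo pathway (50%) and of naive pluripotency (47.8%), described further on, stood among these, whereas tRNA synthetases (32.3%), mitochondrial ribosomal proteins (28.6%) and the respiratory chain (26.6%) were lower. This order depends on the requirement that an end stand alone. With all ends counted, tRNA synthetases had 16 of 35 (45.7%), mitochondrial ribosomal proteins 61.5% and the respiratory chain 45.1%, beside 31.2% of all coding genes. Ubiquitin-conjugating enzymes then had 41.9%, naive pluripotency genes 47.8% and Hippo genes 52.6%.

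How often a group was marked and how strongly were not the same. Ribosomal protein regions had a median fold enrichment of 5.87, splicing factor regions 5.498 and Mediator regions 4.68, against a median of 6.10 over all 4894. A fold enrichment of at least 10 was reached by 0 of 20 splicing regions, beside 17.2% of all 4894 and 13.0% of all peaks. Cyclin and kinase regions had 7.68 and initiation factor regions 7.57. The strongest ribosomal protein genes were Rps20 (16.6) and Rpl31 (14.8), the strongest Mediator genes Med11 (18.1) and Med26 (10.8). Sars and Mars2, aminoacyl-tRNA synthetase genes, had 23.5 and 17.5. Polr2a, the largest subunit of RNA polymerase II, had 13.6, and Psmg1, a proteasome assembly chaperone, had 13.4. Ccng2, a cyclin gene of growth arrest, led its group at 21.6, ahead of Ccnf at 15.3. Many ribosomal protein genes have processed copies elsewhere in the genome, and the sources used here do not say how multiply mapping reads were handled.

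Mitochondrial ribosomal protein genes had a summit by the rule at 20 of 70 (28.6%, interval 18.4 to 40.6). That share depends on the requirement that a gene end stand alone. With ends near other genes included, 48 of 78 (61.5%) had a summit within 200 bp, beside 31.2% of all coding genes, and for the cytosolic group it was 54 of 80 (67.5%). Mrps15 (17.8) and Mrps33 (12.9) had the strongest. Respiratory chain and ATP synthase genes likewise had 21 of 79 (26.6%) under the rule and 37 of 82 (45.1%) with all ends, led by Atp5g2 at 14.3.

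The 23 genes listed for naive pluripotency, the ES cell state that resembles the early epiblast, include general pluripotency genes such as Sox2 and Pou5f1. Of the 23, 11 had a summit at an end standing alone (47.8%, interval 26.8 to 69.4). Their median fold enrichment of 9.08 was the highest of any group described here. Fbxo15 led with 32.3. Nanog, a homeobox factor of pluripotency, had 13.7 at a summit 4 bp from its start, Klf5 itself 10.6 at 157 bp, and Tfcp2l1, a factor of ES cell self-renewal, 10.4 at 7 bp. The cofactor gene Tcl1 had 9.67, Utf1 had 9.08, the zinc-finger gene Zfp42 had 8.93 and the growth factor gene Fgf4 had 8.09. Tbx3 (7.499), Lin28a (5.45) and Dppa2 (4.91) had the lowest. The other 12 had none by the rule, but 6 of them had a summit within 1 kb of an end, among them Dppa4 at 244 bp, Klf2 at 275 bp, Klf4 at 565 bp and Sox2 at 683 bp. All 12 had one within 10 kb of an end, Pou5f1, the gene of OCT4, at 1306 bp and Esrrb at 7037 bp. How many of all coding genes had a summit within these distances was not computed.

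Genes of the Hippo pathway, a kinase cascade that holds the coactivators YAP and TAZ out of the nucleus, had a summit at 9 of 18 (50%, interval 26.0 to 74.0). The coactivator gene Wwtr1, which encodes TAZ, had the strongest at 23.9, followed by Vgll3, a cofactor of TEAD factors, at 22.5, and Yap1 had 7.45 at a summit 12 bp from its start. Of the upstream kinases, Stk4 had 10.4, Stk3 had 8.48 and Lats2 had 7.08. The kinase adaptor gene Mob1b had 7.08 and the upstream regulator Nf2 had 7.51. Wwc1 was marked at both ends, with 7.24 at the start and 8.19 at the 3′ end. The DNA-binding TEAD genes had none by the rule: Tead1 and Tead4 had summits 264 and 266 bp from an end, Tead2 808 bp, and Tead3 160 bp but with another gene's end within 1 kb.

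In KLF5's own family, 7 of 25 KLF and SP genes had a summit (28%, interval 12.1 to 49.4). Klf12 (11.1) and Klf5 (10.6) were strong, and the other 5, Sp4, Sp3, Klf14, Klf17 and Sp5, lay between 5.12 and 3.42. Of the 18 without, 11 had a summit within 1 kb of an end, a share not computed for all coding genes. Klf2, Klf4 and Klf5 belong to both this list and the pluripotency list. Histone lysine methyltransferase and demethylase genes had 11 of 31 (35.5%), led by Kmt2a at 58.7 and by Ezh2, the H3 lysine 27 methyltransferase gene, at 12.7.

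The strongest regions of the remaining groups of general function all stood above the median of 6.10. Kinesin genes, of the microtubule motors, had a summit at 13 of 39 (33.3%), with Kif14 at 18.3 and Kif21b at 12.4, and aminoacyl-tRNA synthetases at 10 of 31 (32.3%). Ube2z and Ube2d3, ubiquitin-conjugating enzyme genes, had 17.3 and 12.7. The translation initiation factor gene Eif2b5 had 13.4, the RNA polymerase III subunit gene Polr3d 10.8, the proteasome subunit gene Psma1 10.5 and the complex I gene Ndufb6 9.86. The splicing genes Srsf5 and Snrpb2 had 9.21 and 9.11, so their group had no region at 10.

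Large families without a tissue theme stood near the background, with 101 of 379 Zfp zinc-finger genes (26.6%), 96 of 364 solute carriers (26.4%) and 12 of 42 collagens (28.6%). Zfp622 (19.5) and Zfp143 (16.5), Slc35f2 (16.6) and Slc4a11 (15.7), and Col5a3 (13.6) and Col13a1 (10.98) had the highest fold enrichments in these families. SOX genes, of developmental transcription factors, had 4 of 18 (22.2%), led by Sox7 at 7.32 and Sox11 at 5.86. Claudins, of tight junctions, had 3 of 22 (13.6%), led by Cldn4 at 11.2 and Cldn23 at 8.79. Trophectoderm and trophoblast genes, of the lineage that forms the placenta, had 6 of 25 (24%, interval 9.36 to 45.1), led by the claudin gene Cldn4 at 11.2 and Bmp4 at 7.04. Of the 19 without, 12 had a summit within 1 kb of an end, among them Ascl2 at 208 bp, Gata2 at 233 bp and Krt19 at 254 bp. The like share over all coding genes was not computed.

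Groups of specialised tissues had shares below 24.4%, although the interval of the smallest of them reaches past it. Of 20 regulators of mesoderm, endoderm and neural fates, 3 had a summit (15%, interval 3.21 to 37.9). Neurog1, a proneural factor gene, was strong at 18.1, and Neurod1, another, had 4.39. Forkhead genes had 4 of 39 (10.3%), cytochrome P450 genes 8 of 93 (8.60%), keratins 4 of 49 (8.16%), Hox genes 3 of 39 (7.69%), serpins 4 of 62 (6.45%) and chemokines 2 of 35 (5.71%). Their strongest regions were at Cyp2s1 (27.4) and Cyp4f39 (12.1), Serpinb9b (14.3) and Serpinh1 (5.55), Ccl20 (8.30) and Cxcl1 (3.90), Foxd2 (7.08) and Foxq1 (5.86), Krt13 (6.83) and Krt18 (5.36), and Hoxd1 (5.86) and Hoxc12 (4.93). Of these 12, the Hox pair, Foxq1, Krt18, Serpinh1 and Cxcl1 lay below the median of 6.10 over all 4894 regions, and the P450 pair and Serpinb9b lay well above it. Of the 36 Hox genes without a summit by the rule, 19 had one within 1 kb of an end and all 36 had one within 10 kb. In such counts 1 peak can serve several neighbouring genes. Of 24 genes of differentiated tissues such as albumin and haemoglobin, 0 had one by the rule, for which the exact interval reaches up to 14.2%, and 13 had none within 10 kb of an end. The share of all coding genes with a summit so near was not computed for comparison. Olfactory receptors had 1 of 1100 (0.0909%), which was Olfr94 at 5.00, vomeronasal receptors 0 of 352 (interval up to 1.04%) and beta-defensins, antimicrobial peptide genes, 0 of 42 (up to 8.41%). In all, 19 of the 33 groups had a share above 24.4%.

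**Figure D3:**
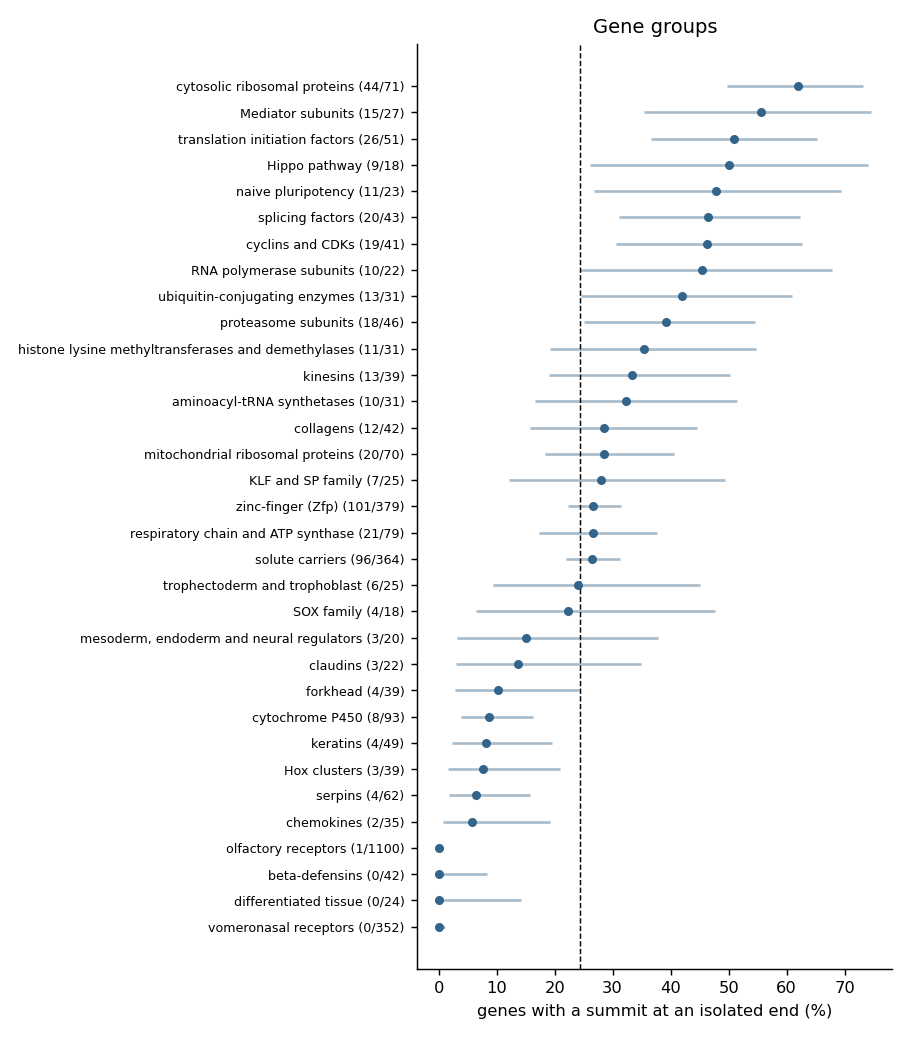
Share of genes in each of 33 groups with a summit at an end standing alone, in percent, with exact 95% intervals for counting error (bars). The number of genes with a summit and the number considered stand in brackets, and the dashed line is the share over all genes, 24.4%. Ribosomal protein, Mediator and initiation factor genes lie to the right of it, and receptor, keratin and serpin genes to the left.

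The share of marked starts moved with the base composition of the promoter. The RefSeq promoter window runs from 250 bp before to 50 bp after a start. Windows of starts with a summit had a median of 62% G and C and 21 CpG dinucleotides, against 48.7% and 3 for the 7308 starts standing alone with no summit within 1 kb, and 56.7% and 14 over all genes. Among isolated starts, a summit was present at 1.54% with a GC share of up to 45%, at 16.4% between 45 and 55%, at 43.8% between 55 and 65%, at 47.2% between 65 and 75%, and at 20.8% above 75%. The share thus climbed with GC and was lower again in the richest class. Between groups GC and share did not go together throughout. The median GC was 57.7% for cytosolic ribosomal proteins, the group marked most often under the rule, 49.0% for keratins and 35.0% for olfactory receptors. Mediator and Hox genes both had 56.8%, with 55.6% and 7.69% of genes marked, and SOX and forkhead genes had 66.0% and 64.2%, with 22.2% and 10.3% marked. The GC medians cover only genes with a promoter window, for example 22 of 39 Hox and 26 of 41 forkhead genes. The shares are not limited to those genes. The part of base composition in the group shares was not tested.

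Strength followed GC less closely. The median fold enrichment was 5.66, 5.19, 6.07, 6.83 and 6.05 from the lowest GC class to the highest. A fold enrichment of at least 10 was reached by 11.7% of summits between 45 and 55% GC and by 23.9% between 65 and 75%, beside 13.0% of all peaks. Above 75% it was 13.4%.

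**Figure D4:**
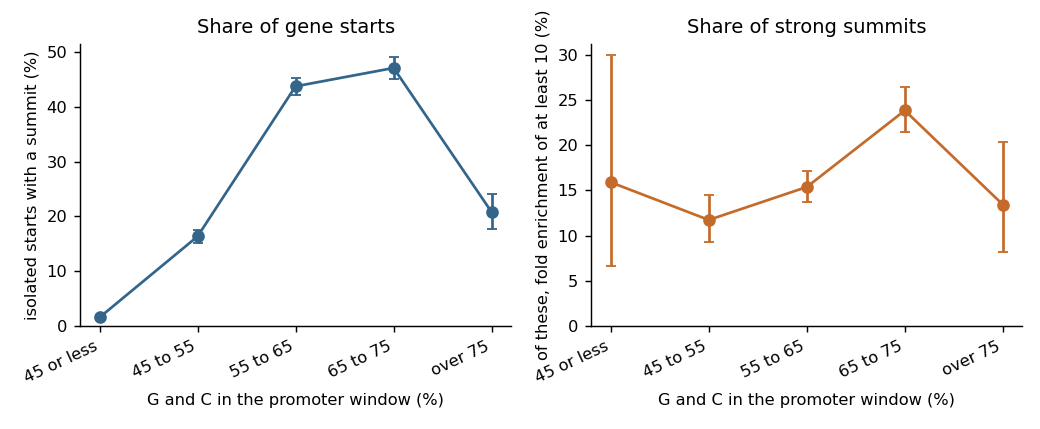
Share of isolated gene starts with a summit (left) and, among these, share with a fold enrichment of at least 10 (right), in percent, by the G and C content of the promoter window in percent. Bars are exact 95% intervals for counting error. The left panel peaks at 47.2% between 65 and 75% GC and is at 20.8% above.

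The promoter windows of starts with a summit often held the elements that KLF and SP proteins bind. They are called windows with a summit here, although the summit itself can lie outside the window. The summits inside a window numbered 2775. On either strand, CCCCGCCC, a GC box, was present in 42.4% of the 3799 windows with a summit, 8.00% of the 7308 without one within 1 kb, and 24.3% of all 16457. CCCCACCC was present in 14.3%, 7.36% and 10.9% of the same sets, and CCACACCC in 5.34%, 3.17% and 3.70%. The looser CCNCNCCC, which includes these 3, was present in 79.7%, 34.8% and 56.7%, and the short CACCC in 65.7%, 51.0% and 59.0%. The GC box differed between the sets also at like GC. Between 55 and 65% GC it was present in 40.1% of windows with a summit, against 15.7% of those without, and between 65 and 75% in 60.1%, against 44.1%. CCCCACCC did not keep 1 direction, with 12.2% against 7.20% between 45 and 55% GC and 13.2% against 15.8% between 55 and 65%. A match is a description of the letters, not a site shown to be bound.

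Elements of other promoter factors went both ways. CCGGAAG, an ETS element, was present in 18.5% of windows with a summit, 4.57% of those without and 12.3% of all. GCGCATGC, within the NRF1 element, was present in 6.84%, 1.16% and 3.66%, AAGATGGCG of YY1 in 2.82%, 0.629% and 1.92%, and TGACGTCA of CREB in 3.47%, 1.27% and 2.40%. TATAAA, the TATA box, ran the other way, at 6.63%, 22.4% and 13.5%. CCAAT, bound by NF-Y, was about as frequent in each, at 38.3%, 40.3% and 39.1%. Windows with a summit had a median GC of 62%, against 48.7% for those without. The elements of this paragraph were not compared at like GC, so the part of base composition in these contrasts was not tested.

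Among starts with a summit, the GC box went with strength. In 4 classes of fold enrichment of about equal size, from weakest to strongest, it was present in 32.5%, 39.7%, 45.1% and 52.2% of windows, while their median GC was 60%, 61.3%, 62.7% and 63.7%. CCNCNCCC was present in 72.7% of the weakest class and 88.7% of the strongest, and CCAAT in 41.5% and 33.3%. The GC box was denser near the summit than at the same places of the promoter windows. Over the 2775 summits inside a window, there were 3.50 boxes per 1000 positions within 25 bp of the summit, against 2.64 at the same places of all windows with a summit. At 151 to 200 bp from the summit there were 1.10, against 1.41. Higher density near the summit was not particular to the GC box. Within 25 bp, the ETS element had 1.23 per 1000 positions, against 0.962 at the same places. The YY1 element had 0.139, against 0.108, and the CREB element 0.167, against 0.156, on 19 and 23 matches. The NRF1 element (0.393, against 0.418), the TATA box (0.145, against 0.209) and the NF-Y element (2.04, against 2.16) were less dense there. Within 50 bp of the summit, 26.5% had a GC box and 55.9% had CCNCNCCC. These shares have no background, since stretches of that size away from summits were not counted. CCNCNCCC is loose, and its density within 25 bp was 10.5 per 1000 positions, against 9.07 at the same places of all windows with a summit.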

How the data were processed

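V5-KLF5 peaks of 1 V5 ChIP-seq library of mouse ES cells were analysed, with peak lists of 2 control libraries. Per the labels' protocols, formaldehyde-fixed chromatin was sheared by sonication. Per the file headers, the authors called peaks with MACS2 2.1.0.20140616 in each library against the input of the same cells, unpooled, with 51 bp tags extended to 250 bp, 1 tag kept per position, the larger library scaled to the smaller, a genome size of 1.87 Gb and a q-value cutoff of 0.05. The submitters' processing notes name mm10 and Bowtie 0.12.8. The handling of multiply mapping reads was not given in the sources used here. The authors deposited for each peak the pileup signal at the summit, a −log10 p-value, a −log10 q-value and a fold enrichment, a ratio to the input, besides its position and length. These are the authors' values and were used to describe, rank and filter peaks within the list. Input background was computed as (pileup + 1) divided by fold enrichment, minus 1.

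Gene ends came from the RefSeq table of GRCm38.p6 and strand from RefSeq promoter windows, which covered 79.6% of 20665 coding genes. Motifs were counted on both strands of those windows. Python 3.11.15, numpy 2.4.6, pandas 2.3.3 and scipy 1.17.1 were used. The membership, strand and motif steps were checked on simulated data. Each group has 1 library, so no test was made. Shares have exact Clopper-Pearson intervals at 95% for counting error, and medians have order-statistic intervals. Members, gene lists and motifs were chosen with earlier results of these data known. Named genes were the 10 regions highest by fold enrichment, by pileup and by length, the 5 shortest, the top 2 of each gene group and those at the limits of the rule. Of them, 1 is not reported here. Genes with 3 or more such summits were to be named too, and there were 0. Genes at 3′ ends, genes marked at both ends and further genes of the pluripotency, Hippo, KLF and trophoblast lists were chosen after their values were seen. Of the listed symbols, 1, Vgll1, had no match on chromosomes 1 to 19. Alternatives were other distances to the gene end and to other genes, stricter q, and peaks above the background floor.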

Additional observations from a re-analysis of the deposited data

Results flagged for a closer look

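Chromosome X was outside the rule. There, 96 of 600 V5-KLF5 peaks (16.0%, exact interval 13.2 to 19.2) met the same distances to gene ends, while the control lists held 0 peaks on that chromosome. They marked 95 of 954 genes with an end standing alone (9.96%, interval 8.13 to 12.04), against 24.4% on chromosomes 1 to 19. Their median length was 410 bp, their median pileup 20 and their median fold enrichment 4.88, against 536 bp, 28 and 6.10. No value was tested across libraries, since there was 1. On chromosome Y, 0 of 6 peaks met the distances.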

How the results depend on the processing

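The number of regions was 3071 within 100 bp of the gene end, 7588 within 500 bp and 3029 at a −log10 q of at least 10. Median length and pileup were 525 bp and 27 within 500 bp, 565 bp and 31 at a −log10 q of at least 5, 640 bp and 37 at 10, and 555 bp and 31 for peaks above the input floor. The share at starts was 98.1% within 100 bp, 93.6% within 500 bp, 96.4% with other gene ends allowed, 97.6% at a −log10 q of 5 and 98.3% at 10. The share of genes marked was 15.4% within 100 bp, 35.1% within 500 bp, 25.1% with no other end within 500 bp, 31.2% with other ends allowed, 21.8% and 15.1% at the 2 q thresholds and 16.5% above the floor. The log2 ratio of median pileup was 0.27 within 100 bp, 0.23 within 500 bp, 0.25 at a −log10 q of 5, 0.0395 at 10 and 0.25 above the floor. The log2 ratio of median length was 0.40 with other ends allowed, 0.32 and 0.19 at the q thresholds and 0.34 above the floor. CCNCNCCC was present in 55.9% within 50 bp of the summit. Both ratios stayed above 0 in every setting run, and the cause of these shifts was not tested. Groups above the share of all genes numbered 19, 20 over all coding genes and 16 with any summit within 200 bp. Median fold enrichment under the same settings, added after the data were seen, ran from 5.79 to 7.81.

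No paired analysis was possible because each group has 1 library. The depth of 1 library leaves unknown how these values vary between cultures, and weak binding below the q cutoff cannot be seen. The promoter table left 980 regions without a strand.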

Other observations

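Noncoding genes lay near some of these summits. A long noncoding RNA gene started or ended within 1 kb of 632 of the 4894 (12.9%, exact interval 11.99 to 13.9), against 4.34% of summits deep inside genes. These 632 had a median length of 565 bp, a pileup of 30 and a fold enrichment of 6.35, against 531 bp, 28 and 6.06 for the other 4262. An end of a transfer RNA gene lay within 1 kb of 14 (0.286%, interval 0.156 to 0.480), against 0.0283% of summits deep inside genes. For small nucleolar RNA genes it was 16 (0.327%), against 0.0736%, and for microRNA genes 34 (0.695%), against 0.379%. Summits deep inside genes lie over 1 kb from every coding gene end by definition. The classes nearer to gene ends were not counted, so these contrasts may reflect position alone, which was not tested.

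Summits at gene ends, whether of 1 gene or several, had fewer neighbours within 5000 and 10000 bp than the rest of the list. At single gene ends, another summit lay within 5000 bp of 39.3% (interval 37.9 to 40.7), against 49.5% of the other peaks, and within 10000 bp of 55.2%, against 64.9%. Summits shared by the ends of several genes were alike in this, with 42.6% (interval 39.7 to 45.5) and 58.9%. Within 1000 bp this did not hold for both, with 15.3% for single gene ends, 17.6% (interval 15.4 to 19.9) for shared ends and 16.1% for the other peaks.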
